A study of Rattus norvegicus with 65 samples.

Results

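The late response to acetaminophen (Ace) was measured in 14 of the 65 RNA sequencing libraries, 7 from Ace-treated cells and 7 from their DMSO2 controls, both taken after 24 h. The members were chosen by treatment and time alone, so no measured value entered the choice, and all 14554 genes in the table of counts were described. The cells were primary neonatal rat cardiomyocytes, heart muscle cells isolated from newborn rats. Ace cells received 2.5 mM acetaminophen in 0.25% DMSO and DMSO2 cells received 0.25% DMSO alone, so the solvent was common to both groups. Further cultures given the same treatments were taken after 6 h (6 Ace and 7 DMSO2 libraries). At 24 h other cells received 10 mM 5-fluorouracil (5FU, 6 libraries, with DMSO1 controls in 1% DMSO, 6 libraries) or 1.25 μM doxorubicin (Dox, 7 libraries, with the DMSO2 controls). Before treatment, the cells were grown in plating medium and then kept without serum overnight. Hearts of 3 litters were digested in parallel and mixed before plating, so the libraries are parallel cultures of a shared preparation, and every p-value below measures only the spread between such cultures.

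Acetaminophen is an analgesic that inhibits the cyclooxygenases, the enzymes of prostaglandin synthesis. Cells inactivate it by attaching sulfate or glucuronic acid, while cytochrome P450 enzymes oxidise a part of it to a reactive quinone imine that is captured by glutathione and later excreted as a mercapturate. The transcription factor NRF2, which is held in check by Keap1, induces genes of glutathione synthesis and detoxification under electrophilic stress. At millimolar concentrations acetaminophen is also known to inhibit ribonucleotide reductase, the enzyme that makes deoxynucleotides for DNA synthesis. Genes of DNA synthesis are controlled by E2F factors, whereas many genes of mitosis are controlled through the cell cycle homology region (CHR), a short promoter element bound by complexes of the MuvB core. Neonatal cardiomyocytes divide little in culture, and such cultures also hold fibroblasts, endothelial cells and macrophages, of which fibroblasts divide readily and make most of the matrix.

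Library totals ran from 17449579 to 20923087 counts for Ace and from 17277845 to 21413498 for DMSO2. The first principal component of the 14 libraries held 46.2% of the variance and separated the groups. Libraries 1 to 6 of Ace scored between 27.5 and 34 on it, but library 7 scored 16.3, and the DMSO2 libraries scored between -30.8 and -26.1. Library 7 of Ace thus stood apart with a smaller shift in the same direction. It was the lowest of the 7 Ace libraries for 1002 of the 2645 genes that rose (37.9%) and the highest for 992 of the 2773 genes that fell (35.8%). Values without it are given where they matter. Defining markers of heart muscle were abundant in both groups: the 25 cardiomyocyte markers in the table together held 52120 to 65230 counts per 1000000 (CPM, scaled with TMM factors) in DMSO2 and 51300 to 68610 in Ace. Markers of 4 other cell types were present as well, and no marker in the table was at 0 in all 14 libraries. The table had been cleared of genes with low counts throughout, and a few listed markers are not in it. In bulk RNA, fewer cells of a type and less RNA per cell cannot be told apart.

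At 24 h, 5418 genes differed between Ace and DMSO2 at a false discovery rate (FDR) below 0.01 in edgeR's quasi-likelihood test. Of these, 2645 rose (18.2% of the genes tested) and 2773 fell (19.1%). A log2 fold change of at least 1 in size was found for 378 of the genes that rose and 513 of those that fell. All 7 Ace libraries lay above all 7 DMSO2 libraries for 1921 genes (13.2%) and below them for 1999 genes (13.7%). The median log2 fold change over all genes was -0.00082. With scaling by library size alone that median was 0.056, and the split changed to 3449 genes higher and 2166 lower. DESeq2's size factors gave 2584 higher and 2833 lower, so the near balance held with these or TMM factors but not with library size alone. Counts in the lists of genes below are to be read against these shares of all genes, 37.2% in both directions together. The median standard error (SE) was 0.0682 on the log2 scale among the 10754 genes with a mean count of at least 100.

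Gdf15, a secreted stress cytokine of the TGF-beta superfamily, showed the largest increase among genes with a mean count of at least 100. Its lowest, median and highest levels were 6.27, 6.92 and 8.24 CPM in DMSO2 and 54.6, 61.2 and 73.1 CPM in Ace, a log2 fold change of 3.15 ± 0.29 (SE, FDR 4.1e-14). The groups were far apart and library 7 was the lowest of the Ace libraries. The next largest increases belonged to Ddias (2.82), a damage-induced suppressor of apoptosis, Xkr5 (2.78), a member of the Xk family of membrane proteins, and E2f8 (2.56), a repressor of E2F targets. Esco2, which acetylates cohesin in S phase, rose by 2.54 and Fam111a, a protease of replication forks, by 2.53 on the log2 scale. Mybl1 (2.38), a MYB transcription factor, Cdh24 (2.29), a cadherin, Dtl (2.18), a ubiquitin ligase adaptor that removes replication factors in S phase, and Pclaf (2.13), a partner of the sliding clamp PCNA, completed the first 10. All 7 Ace libraries exceeded all 7 DMSO2 libraries for each of these 10 genes.

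The largest decreases were mostly in secreted and matrix proteins. Aspn, a small leucine-rich proteoglycan that binds TGF-beta, had levels of 16.5, 19.5 and 23.2 CPM (lowest, median, highest) in DMSO2 and 1.48, 1.62 and 2.57 CPM in Ace. Its log2 fold change was -3.43 ± 0.24 (FDR 7.0e-19), and the highest Ace library was far below the lowest DMSO2 library. Sfrp2 (-2.69), a secreted Wnt modulator, Dpep1 (-2.27), a dipeptidase, Fndc1 (-2.17), a fibronectin-domain protein, and Cpz (-2.17), a carboxypeptidase that binds Wnt proteins, followed. Prom1 (-2.12), a membrane glycoprotein, Postn (-2.05), the matricellular protein periostin, Cilp (-1.99), a cartilage and heart matrix protein, Cemip (-1.97), which degrades hyaluronan, and Vegfd (-1.96), a lymphatic growth factor, made up the rest of the 10. None of these 10 genes had an Ace library within the range of DMSO2.

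**Figure D1:**
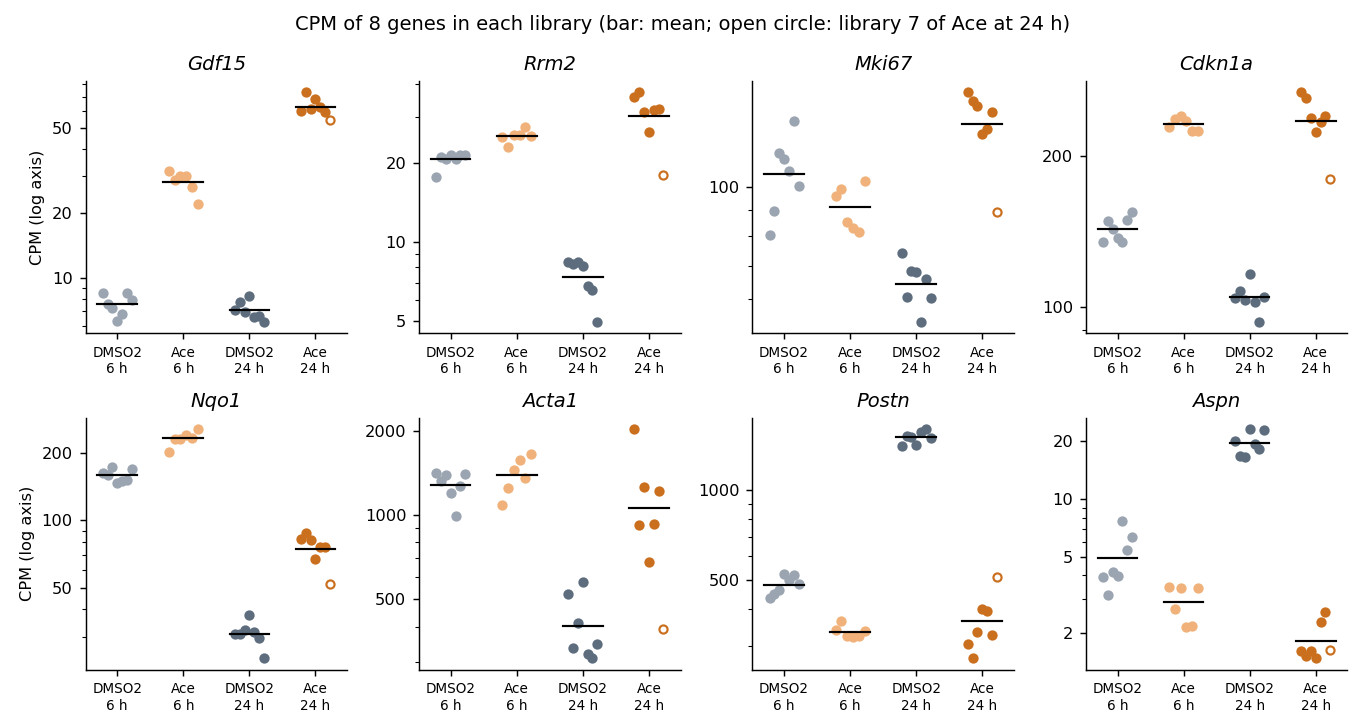
CPM (log axis) of 8 genes in each library of DMSO2 and Ace at 6 h and 24 h; points are libraries, bars are group means, and the open circle is library 7 of Ace at 24 h. Gdf15, Rrm2, Mki67, Cdkn1a and Nqo1 were higher in all Ace libraries than in all DMSO2 libraries at 24 h, Postn and Aspn were lower in all, and Acta1 overlapped through library 7.

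By level, the 5 most abundant genes (by mean log2 CPM) that rose at least 2-fold included markers of proliferation beside a muscle gene and stress genes. Acta1, skeletal muscle alpha-actin, ran from 308 to 577 CPM in DMSO2 (median 346) and from 392 to 2025 CPM in Ace (median 932), with a log2 fold change of 1.40 ± 0.28 (FDR 2.8e-05). Its spread within Ace was wide, and library 7 lay inside the DMSO2 range. Cdkn1a (1.17), Hmox1 (1.12), Mki67 (1.05) and Top2a (1.57) were the others. The 5 most abundant genes that fell at least as much included Col3a1 (-1.33), Postn and Acta2 (-1.02), the smooth muscle alpha-actin. Spp1 (-1.02), which encodes osteopontin, and C7 (-1.30), a terminal complement component, were the others.

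**Figure D2:**
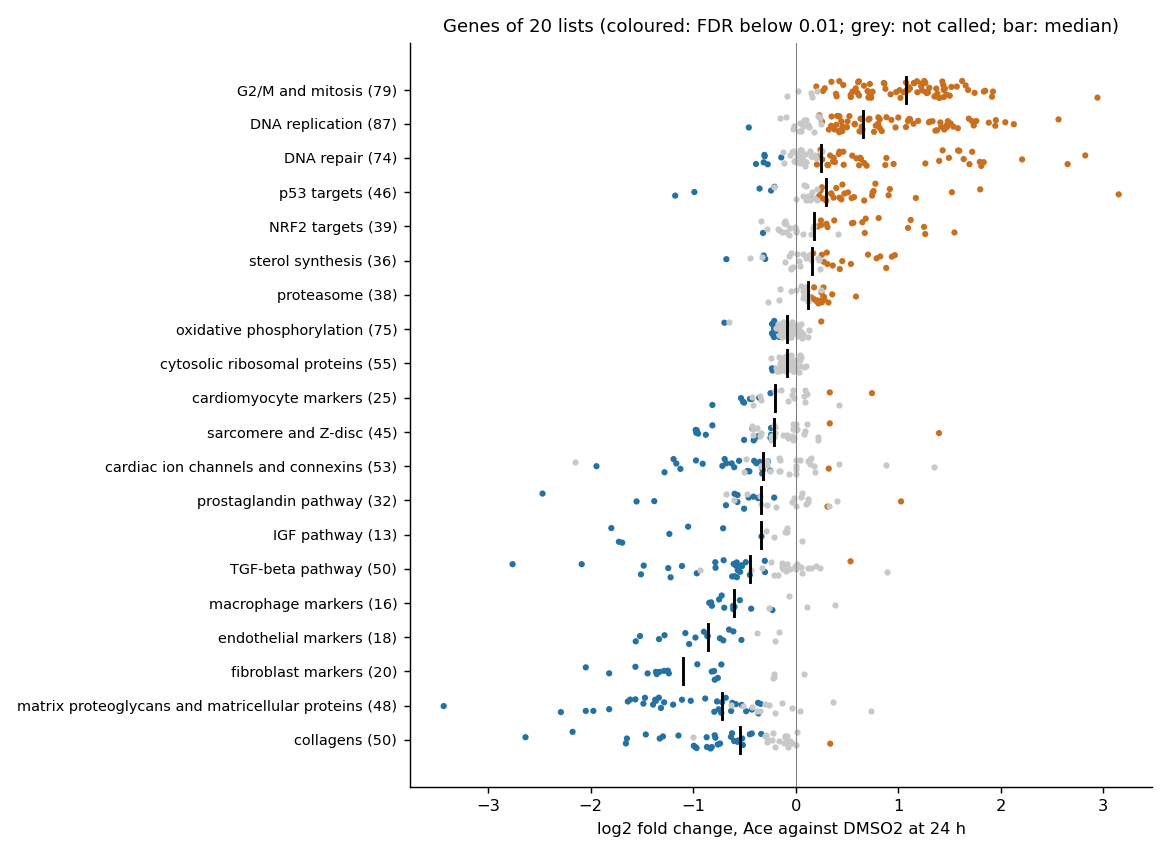
Log2 fold change of Ace against DMSO2 at 24 h for the genes of 20 lists; each point is a gene, orange and blue points had an FDR below 0.01, grey points did not, and the black bar is the list's median. Medians ran from 1.075 for G2/M and mitosis to -1.099 for fibroblast markers, with the energy and ribosomal lists near 0.

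Genes of DNA replication rose in most cases. Of the 87 in the table, 69 rose and 1 fell, with a median log2 fold change of 0.65, and 61 rose without any overlap between the groups. Origin licensing and firing genes rose in 21 of 26 cases (median 1.084) and the E2F factors and their partners in 13 of 18 (median 0.72). Polymerases and clamp proteins rose in 24 of 30 cases (median 0.65), and enzymes of deoxynucleotide supply in 11 of 13 (median 0.40). Without library 7, 70 of the 87 rose.

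Every subunit of ribonucleotide reductase in the table rose. Rrm2, the small subunit made in S phase, had 4.97, 8.13 and 8.39 CPM (lowest, median, highest) in DMSO2 and 17.9, 31.7 and 37.1 CPM in Ace, a log2 fold change of 2.04 ± 0.13 (FDR 3.8e-20). Rrm2l1, a gene named as Rrm2-like and singled out after its values were seen, rose by 2.03, but reads may have been divided between such near copies, so both values are uncertain. Rrm1, the large subunit, ran from 98.2 to 114 CPM in DMSO2 (median 107) and from 112 to 146 CPM in Ace (median 137), a log2 fold change of 0.35 ± 0.07 (FDR 5.4e-05), and only library 7 lay within the DMSO2 range. Rrm2b, the small subunit induced by p53, rose by 0.40 ± 0.09. Other genes of deoxynucleotide supply that rose were Dck (1.47), the deoxycytidine kinase of nucleoside salvage, Tyms (0.50) and Tk1 (0.50).

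Replication factors for which the groups did not overlap included Gmnn (1.95) and Cdt1 (1.33), the inhibitor and the loader of origin licensing, and Mcm10 (1.54), needed for helicase activation. Mcm4, a subunit of the helicase itself, rose by 0.46. Pole2 (1.95) and Pole (1.58), subunits of the leading-strand polymerase, Clspn (1.74), which carries the replication checkpoint signal, and Gins1 (1.42), a helicase subunit, rose as well. Pcna, the sliding clamp, ran from 38 to 51 CPM in DMSO2 (median 43.4) and from 81.3 to 92.7 CPM in Ace (median 86.6), a log2 fold change of 1.0 ± 0.06. Pola2, a subunit of the primase complex, was the only member of the list to fall (-0.46 ± 0.05, FDR 1.9e-11). The activator E2f1 rose by 1.76, the repressor E2f7 by 1.88, and the E2F-driven cyclins Ccne1 and Ccne2 by 1.48 and 1.51. Of 15 G1 cyclins, CDKs and inhibitors 6 rose, Ccne1 and Ccne2 among them, and 2 fell (median 0.12). Those 2 were Ccnd1 (-0.29) and its partner Cdk4 (-0.26), and Ccnd1 lost its call with scaling by library size alone (-0.24) and without library 4 of DMSO2 (-0.25).

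The promoter stretches of 3 of these genes are shown because each carries an E2F site. RefSeq promoters of the rat assembly GRCr8 were at hand for 11403 genes of the table, each from 250 bases before to 50 bases after the start, and were searched on both strands for TTTGGCGC, TTTCCCGC, TTTGGCGG and TTTCGCGC, which can overlap each other. A match was found in 467 of all 11403 promoters (4.10%), in 34 of 69 promoters of replication genes (49.3%) and in 3 of 67 promoters of mitotic genes (4.48%). Capitals mark the match, which lies on the other strand in Pclaf and Clspn, and in Gins1 they cover a pair of overlapping matches of a palindrome. The stretches are chr8:75315617-75315716 (plus strand), chr5:144134470-144134569 (plus) and chr3:160184820-160184919 (plus), and lie wholly before the start.
Pclaf: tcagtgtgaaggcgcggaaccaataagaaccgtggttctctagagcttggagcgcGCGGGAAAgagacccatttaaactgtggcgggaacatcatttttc
Clspn: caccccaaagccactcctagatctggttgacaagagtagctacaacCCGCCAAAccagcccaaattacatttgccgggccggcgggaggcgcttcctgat
Gins1: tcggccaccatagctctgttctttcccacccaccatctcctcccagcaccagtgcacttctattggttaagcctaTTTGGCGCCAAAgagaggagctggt

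Genes of G2/M and mitosis rose with few exceptions at 24 h. Of the 79 in the table, 74 rose and none fell, with a median log2 fold change of 1.075, and 55 rose without overlap. Counts and direction were the same without library 7 (74 higher, median 1.14). All 29 genes of the spindle and cytokinesis rose, as did 20 of 22 genes of the kinetochore and cohesin, 13 of 14 genes of CDK1 control and 12 of 14 genes of the checkpoint and the anaphase-promoting complex. The 5 members that did not pass the test were Wee1 (0.02), Cdc20 (-0.09), Fzr1 (0.16), Cenpf (0.20) and Smc4 (0.15).

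Mki67, which coats mitotic chromosomes and marks dividing cells, ran from 54.2 to 74.3 CPM in DMSO2 (median 65.8) and from 89.4 to 154 CPM in Ace (median 141). Its log2 fold change was 1.05 ± 0.12 (FDR 2.3e-11), and library 7 was the lowest Ace library by a wide margin, though still above every control. Cdk1, the mitotic kinase, had 13.6, 16 and 17.8 CPM (lowest, median, highest) in DMSO2 and 25, 33.8 and 42.9 CPM in Ace (1.1 ± 0.09). Foxm1, the transcription factor of mitotic genes, rose by 1.29, and the condensin subunits Ncaph and Ncapg by 1.92 and 1.85. Cenpt (1.91), a link between centromere and microtubule attachment, Espl1 (1.68), the separase that cuts cohesin, and the spindle proteins Ckap2 (1.62) and Ckap2l (1.5) rose with no overlap between the groups.

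In several mitotic regulators library 7 fell within the control range. Ccnb1, the mitotic cyclin, ran from 9.74 to 15 CPM in DMSO2 (median 12.5) and from 9.74 to 23.2 CPM in Ace (median 19.1), a log2 fold change of 0.54 ± 0.13 (FDR 3.4e-04). Aurka (0.35), the spindle pole kinase, and Ube2c (0.74), an enzyme of the anaphase-promoting complex, had 6 of 7 Ace libraries above all controls. Plk1 (0.28 ± 0.09, FDR 0.0086) lost its call in 8 of the fits that left out 1 library (0.24 to 0.28), those without library 1, 2, 3, 4 or 5 of Ace or library 2, 6 or 7 of DMSO2. Plk5, an atypical Polo-like kinase, had the largest change of the list (2.94 ± 0.22, FDR 6.9e-18) at a low level, from 0.531 to 1.05 CPM in DMSO2 and from 1.88 to 8.27 CPM in Ace, where library 7 held the 1.88 and the next library 6.81.

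Promoters of 3 mitotic genes are shown with their CHR, here the letters TTTGAA, searched on both strands of the same windows. The letters occurred in 46 of 67 promoters of mitotic genes (68.7%), in 11 of 69 promoters of replication genes (15.9%) and in 1333 of all 11403 promoters (11.7%). Capitals mark the match, and all stretches end before the start. They are chr14:69645446-69645545 (minus strand), chr7:135302587-135302686 (plus) and chr16:76541942-76542041 (plus) of GRCr8.
Ncapg: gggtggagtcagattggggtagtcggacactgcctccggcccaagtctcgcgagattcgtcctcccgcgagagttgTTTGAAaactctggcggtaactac
Espl1: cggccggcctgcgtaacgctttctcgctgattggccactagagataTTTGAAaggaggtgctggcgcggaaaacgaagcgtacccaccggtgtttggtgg
Ckap2: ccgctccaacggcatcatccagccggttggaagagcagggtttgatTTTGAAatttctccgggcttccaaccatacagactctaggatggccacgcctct

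The mitotic genes had moved the other way at 6 h. At that time 2404 of all genes rose (16.5%) and 2215 fell (15.2%), and of the 79 mitotic genes 5 rose and 39 fell, with a median log2 fold change of -0.34. The difference between the effects, 24 h minus 6 h, passed the test for 1694 genes, 812 upward (5.58%) and 882 downward (6.06%), and for 75 of the 79 mitotic genes, all upward. Scaling by library size alone gave 1402 upward and 417 downward differences. In all, 91 genes fell at 6 h and rose at 24 h, and 36 of them were members of the mitotic list. The difference was called for all 91, which calls in opposite directions all but ensure. The opposite course was taken by 26 genes, while 1258 rose at both times and 1359 fell at both.

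Replication genes differed from the mitotic genes in this course. At 6 h, 38 of 87 rose and 3 fell (median 0.20), and 50 differences, 24 h minus 6 h, were called upward and 1 downward. Clspn, for example, rose by 0.72 at 6 h and by 1.74 at 24 h, whereas Top2a, which untangles chromosomes before division, fell by 0.60 and then rose by 1.57. Cdc20, the activator of the anaphase-promoting complex, fell by 1.70 at 6 h and was at -0.09 at 24 h. Ube2c fell by 1.42 and Ccnb1 by 1.29 at 6 h.

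**Figure D3:**
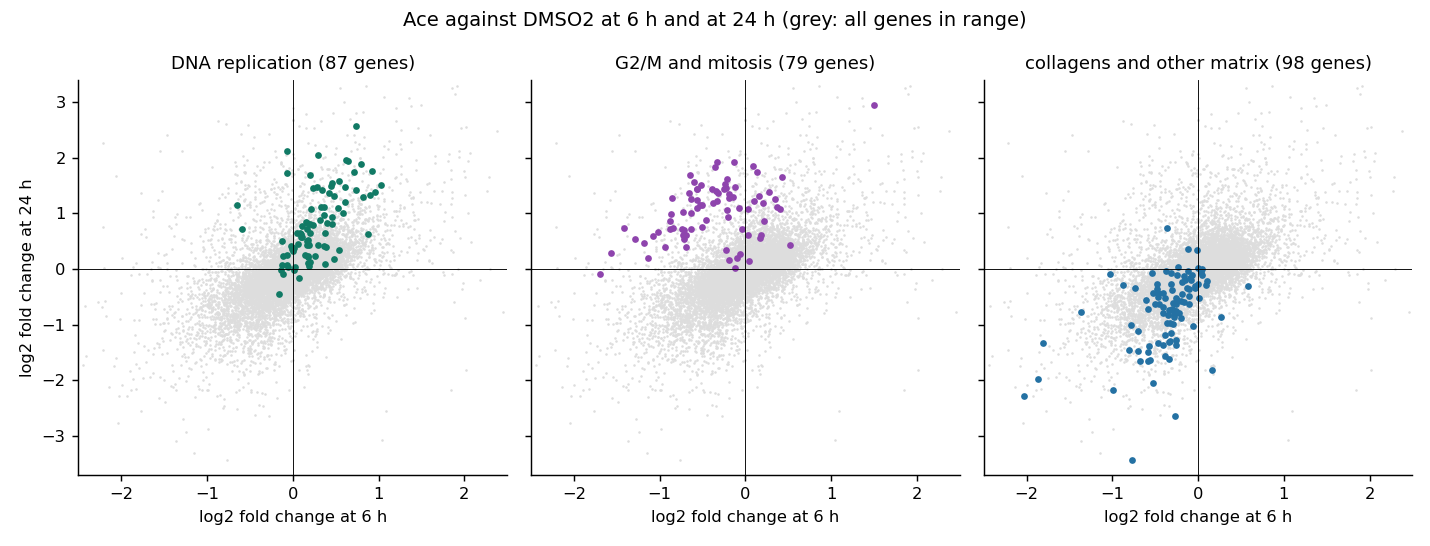
Log2 fold change of Ace against DMSO2 at 6 h (horizontal) and at 24 h (vertical) for replication genes (87), mitotic genes (79) and collagens and other matrix genes (98), over all genes in range in grey. Most mitotic genes lay left of 0 at 6 h and above 0 at 24 h, and most matrix genes lay below 0 at both times.

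The controls themselves changed between the times. The summed level of the 79 mitotic genes was 2231 to 2520 CPM in DMSO2 at 6 h and 1295 to 1496 CPM in DMSO2 at 24 h, while Ace libraries held 1878 to 2078 CPM at 6 h and 1801 to 2932 CPM at 24 h, where library 7 was the lowest. The summed level of the 87 replication genes was 2297 to 2447 CPM in DMSO2 and 2609 to 2773 CPM in Ace at 6 h. At 24 h it was 1624 to 1734 CPM in DMSO2 and 2162 to 2603 CPM in Ace. For both lists, the range of Ace at 24 h spanned that of the 6 h controls, and 24 h controls were the lowest group. The mitotic median of Ace at 24 h, 2648 CPM, lay above every 6 h control, and library 7 lay below them all. Ace at 24 h was not tested against the 6 h controls.

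**Figure D4:**
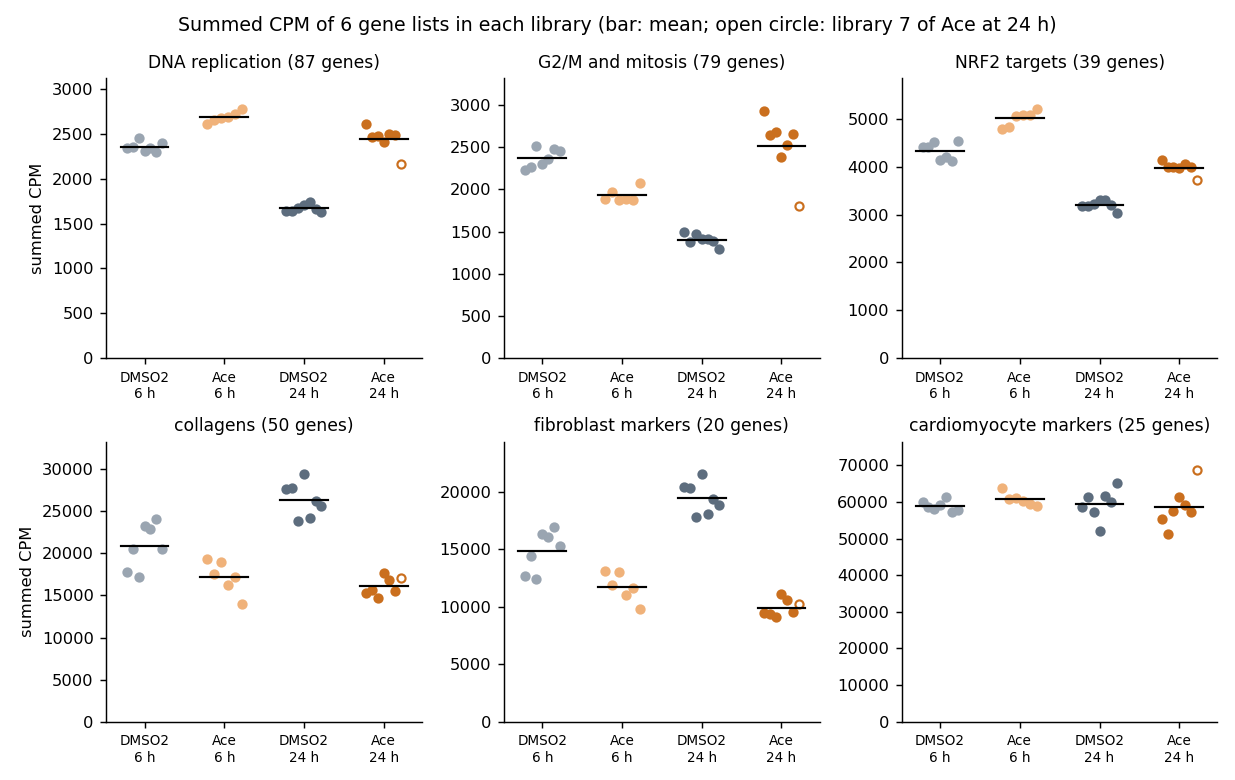
Summed CPM of 6 gene lists in each library of DMSO2 and Ace at 6 h and 24 h; bars are means and the open circle is library 7 of Ace at 24 h. Replication, mitotic and NRF2 sums were lowest in DMSO2 at 24 h, collagen and fibroblast sums were highest there, and cardiomyocyte sums overlapped between the groups.

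Genes of DNA repair rose in 39 of 74 cases and fell in 6 (median 0.25), or in 3 with scaling by library size alone. Homologous recombination and Fanconi anemia genes, many of which are expressed in S phase, rose in 25 of 33 cases with none lower (median 0.69), against 10 higher and 6 lower of 32 excision and mismatch repair genes (median 0.10). Brca1 had 6.1, 6.39 and 7.05 CPM (lowest, median, highest) in DMSO2 and 15, 21.9 and 25 CPM in Ace (1.72 ± 0.10, FDR 1.2e-22). Fancb, of the Fanconi anemia core complex, rose by 1.83, Eme1, a nuclease subunit, by 2.21, and Polq, the polymerase of alternative end joining, by 1.69. Neil3, a glycosylase that acts on crosslinks, rose by 2.65 at a low level, from 0.291 to 1.07 CPM in DMSO2 to 1.78 to 4.25 CPM in Ace. Parp1, the sensor of strand breaks, fell by 0.39 and its groups did not overlap.

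Targets of p53, Gdf15 among them, rose in 29 of 46 cases and fell in 5 (median 0.29), or in 3 with scaling by library size alone. Gdf15 is also on the list of ATF4 and amino acid response genes, as is Nupr1, which fell by 0.99. Cdkn1a, the CDK inhibitor p21, ran from 93.4 to 116 CPM in DMSO2 (median 104) and from 180 to 268 CPM in Ace (median 239), a log2 fold change of 1.17 ± 0.22 (FDR 7.7e-06). It had risen by 0.70 at 6 h, and the difference between the times did not pass the test (0.48, FDR 0.29). Mdm2 (0.91), which degrades p53, the death genes Pmaip1 (1.80), Fas (0.74) and Bax (0.35), and Polh (0.92), a translesion polymerase, rose, and Bax lost its call without library 1 of Ace or library 3, 6 or 7 of DMSO2 (0.33 to 0.34). Gtse1, a p53 target that is also a mitotic protein, rose by 1.52. Ptprv (-1.18), a phosphatase, was among the members that fell.

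Histone genes were counted only as far as their transcripts carry a polyA tail, which replication-dependent histone transcripts mostly lack. Of 21 in the table, 8 rose and 2 fell (median 0.54). H2ax, the variant phosphorylated at strand breaks, rose by 0.88. Of the 8 replication-dependent genes 1 rose (Hist1h2ai, 0.76) and 1 fell (H2bc12, -1.54).

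Matrix genes fell together. Of 50 genes for collagens and their processing, 29 fell and 1 rose (median -0.54), and 27 fell without overlap. Col3a1, a fibrillar collagen, had 4884, 5114 and 5463 CPM (lowest, median, highest) in DMSO2 and 1758, 1956 and 2287 CPM in Ace, a log2 fold change of -1.33 ± 0.10 (FDR 4.3e-17). Col1a1 fell by 0.82 and Col1a2 by 0.76. Among beaded and other collagens 12 of 14 fell (median -0.85), with Col26a1 (-2.64) and Col6a5 (-2.18) the largest. Of 8 basement membrane collagen genes 1 fell and Col4a6 rose (0.34 ± 0.09). Col4a1 had a log2 fold change of -0.23 (FDR 0.046) and passed the test in the fit of the compared groups alone. Lox, which crosslinks collagen and elastin, fell by 1.14.

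Of 48 other matrix genes, 35 fell and none rose (median -0.72). Matricellular proteins fell in 19 of 23 cases (median -1.11) and small leucine-rich proteoglycans in 7 of 9 (median -0.80). Postn, a product of activated fibroblasts, ran from 1414 to 1604 CPM in DMSO2 (median 1514) and from 273 to 511 CPM in Ace (median 334), where library 7 was the highest. Lum (-1.56), Dcn (-1.28), Sparcl1 (-1.64), Eln (-1.37), Ccn2 (-1.47) and Thbs1 (-0.77) fell with no overlap, Ccn2 and Thbs1 being targets of TGF-beta and YAP signalling. Fn1, fibronectin, had -0.51 ± 0.19 (FDR 0.020), with an overlap of the groups. Mfap4 (-2.29 ± 0.67) passed at an FDR of 0.0035 but lost its call in DESeq2's Wald test and without library 6 of Ace or library 7 of DMSO2 (-2.06 in both).

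Matrix proteases and their inhibitors fell in 21 of 36 cases and rose in 2 (median -0.55). Adamts5 (-1.69), an aggrecanase, Mmp2 (-0.56), the gelatinase, and Serpinf1 (-1.59), an antiangiogenic serpin, fell. The membrane-type proteases Mmp17 (0.33) and Mmp24 (0.26) rose. Timp1, an inhibitor induced in many injuries, was at 0.16 ± 0.09 (FDR 0.16).

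Markers of non-muscle cells moved with the matrix. Of 20 fibroblast markers, 8 of which are also on the matrix lists, 16 fell and none rose (median -1.099). Their summed level was 17840 to 21530 CPM in DMSO2 and 9138 to 11080 CPM in Ace, with library 7 inside the range of the other Ace libraries. Pdgfra, the surface receptor of heart fibroblasts, had 141, 165 and 180 CPM (lowest, median, highest) in DMSO2 and 53.1, 70.6 and 84.8 CPM in Ace (-1.24 ± 0.09, FDR 2.6e-18). Fap (-1.45), a protease of activated fibroblasts, and Tcf21 (-0.80), a transcription factor of the fibroblast lineage, fell, whereas Gsn was at 0.08 ± 0.04 (FDR 0.12).

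Of 18 endothelial markers 15 fell (median -0.86), among them Vwf (-1.56) and Cdh5 (-0.86). Their summed level was 473.7 to 607.5 CPM in DMSO2 and 286.3 to 454.6 CPM in Ace, where library 7 was the highest. Without library 7, 16 of them fell (median -0.99). Of 16 macrophage markers 12 fell (median -0.60), among them Ptprc (-0.82) and Cd68 (-0.75), with a summed level of 155.5 to 195.9 CPM in DMSO2 and 110.3 to 135.4 CPM in Ace. C1qb was at -0.07 (FDR 0.71). Of 12 smooth muscle and pericyte markers 6 fell (median -0.23), such as Myh11 (-0.50). The part that these markers had in the fall of the matrix genes was not tested.

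Growth factor pathways that act on matrix cells were lower as well. In the TGF-beta pathway 26 of 50 genes fell and 1 rose (median -0.44). Ligands fell in 10 of 13 cases, such as Bmp4 (-1.24), with Tgfb1 at -0.17 (FDR 0.19). Gdf11 was the one listed gene that rose (0.53 ± 0.08), and Gdf15 was not on this list. Receptors and SMAD proteins fell in 5 of 18 cases with none higher (median -0.115). Tgfb2 (-0.57 ± 0.19, FDR 0.0095) was close to the threshold and lost its call in 13 of 14 fits that left out 1 library (-0.53 to -0.59), all but that without library 6 of DMSO2, with scaling by library size alone (-0.51) and with filterByExpr (-0.56). Grem1, a secreted BMP antagonist, fell by 2.76 from a low level of 0.684 to 1.76 CPM in DMSO2.

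Of 13 genes of the IGF pathway 7 fell and none rose (median -0.34). Igf1 had 37.6, 42.2 and 44.5 CPM (lowest, median, highest) in DMSO2 and 8.69, 12.8 and 16.4 CPM in Ace (-1.69 ± 0.09, FDR 1.3e-23). Igf2 fell by 1.23, and the binding proteins Igfbp5 and Igfbp3 by 1.80 and 1.73. Wnt pathway genes fell in 14 of 45 cases and rose in 4 (median -0.14). Secreted Wnt inhibitors fell in 5 of 9 cases, including Sfrp2 and Frzb (-1.67), while Sfrp1 was at 0.06 (FDR 0.48).

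Genes of acetaminophen handling changed unevenly. Of 35 in the table, 9 rose and 7 fell (median -0.04), 45.7% against 37.2% of all genes. In the sulfation branch Papss1, which makes the sulfate donor, rose by 0.16 ± 0.05 but not without library 1 or 5 of Ace or library 3, 6 or 7 of DMSO2 (0.15 to 0.16). Its relative Papss2 fell by 0.76 ± 0.09, and Suox, sulfite oxidase, rose by 0.38 ± 0.05. The phenol sulfotransferase Sult1a1 was low, with 0.481 to 1.16 CPM in DMSO2 and 0.602 to 1.12 CPM in Ace, and its log2 fold change of -0.04 was not called. The glucuronidation branch had 3 genes in the table and none was called, with the donor enzymes Ugdh at -0.12 (FDR 0.13) and Ugp2 at -0.15 (FDR 0.037).

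Of 7 genes of the oxidation branch 4 rose and 2 fell. Cyp1a1, an inducible cytochrome P450 of the aryl hydrocarbon receptor, had 0.466, 0.495 and 1.34 CPM (lowest, median, highest) in DMSO2 and 0.791, 1.43 and 2.77 CPM in Ace, a log2 fold change of 1.17 ± 0.23 (FDR 1.5e-05), with 4 of 7 Ace libraries above all controls. It had fallen by 0.51 at 6 h. Cyp2d4 fell by 0.98 ± 0.21. The reductase Por, which feeds electrons to P450 enzymes, rose by 0.15 ± 0.05 but lost its call with DESeq2's size factors (0.15) and in 9 fits without 1 library (0.14 to 0.16), library 1, 4, 5 or 6 of Ace or library 1, 3, 5, 6 or 7 of DMSO2. Ephx1, an epoxide hydrolase, rose by 1.09 ± 0.24.

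Conjugation with glutathione and the mercapturate steps gave 2 genes higher and 4 lower of 18. Gstp1, the main placental-class glutathione transferase, ran from 185 to 230 CPM in DMSO2 (median 205) and from 343 to 390 CPM in Ace (median 370), a log2 fold change of 0.81 ± 0.06 (FDR 4.5e-18). Gstm1 was at -0.18 (FDR 0.19). The dipeptidases Dpep1 (-2.27) and Dpep2 (-1.72), which process glutathione conjugates, and the aminoacylase Acy3 (-1.06), which acts on mercapturates, fell with no overlap. Ggt1, which takes the first step of that degradation, was near the detection limit at 0.104 to 0.725 CPM over both groups. Faah, an amidase that joins deacetylated acetaminophen to arachidonic acid, rose by 0.41 ± 0.12, with 2 of 7 Ace libraries above all controls, and lost its call without library 5 of Ace or library 4 of DMSO2 (0.36 in both).

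Targets of NRF2 rose in 18 of 39 cases and fell in 1 (median 0.18), with 17 rising without overlap. Gclc, the catalytic subunit of the first enzyme of glutathione synthesis, had 23.8, 25.1 and 26.8 CPM (lowest, median, highest) in DMSO2 and 53.2, 59.7 and 64.8 CPM in Ace (1.25 ± 0.06, FDR 1.2e-24). Nqo1, a quinone reductase, ran from 24.2 to 37.8 CPM in DMSO2 and from 52.2 to 87.7 CPM in Ace, a log2 fold change of 1.26 ± 0.10. Srxn1 (1.55), which repairs peroxiredoxins, Hmox1 (1.12), heme oxygenase, Ftl1 (0.67), the ferritin light chain, Txnrd1 (0.65) and Gclm (0.55) rose as well. Keap1 rose by 0.25 and Nfe2l2, which encodes NRF2, was at -0.10 (FDR 0.17). Slc7a11, the cystine importer, was the member that fell (-0.32 ± 0.10, FDR 0.0062), and it lost its call with scaling by library size alone (-0.26) and without library 1, 3, 4, 6 or 7 of Ace or library 2 or 4 of DMSO2 (-0.27 to -0.31).

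The increase of NRF2 targets differed in time from gene to gene. At 6 h, 11 of the 39 had risen and 1 had fallen, and 6 differences between the times were called upward and 2 downward. Srxn1 had already risen by 1.59 at 6 h and Gclc by 1.06, while Nqo1 went from 0.55 to 1.26 and Gstp1 from 0.17 to 0.81. The letters TGACNNNGC of the antioxidant response element occurred in 8 of 32 promoters of NRF2 targets (25%) and in 1654 of all 11403 promoters (14.5%).

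Of 37 genes of the glutathione and thioredoxin systems 12 rose and 6 fell (median 0.03). Gss, the second enzyme of glutathione synthesis, rose by 0.49, Txn1 by 0.51 and the peroxiredoxin Prdx1 by 0.57. Cth, which makes cysteine from cystathionine, fell by 1.13 ± 0.19 from 2.49 to 3.96 CPM in DMSO2 to 0.841 to 2.23 CPM in Ace.

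Of 32 genes of the prostaglandin pathway, which holds the cyclooxygenases that the drug inhibits, 2 rose and 13 fell (median -0.34). Ptgs1, cyclooxygenase 1, had 5.58, 6.29 and 6.53 CPM (lowest, median, highest) in DMSO2 and 3.37, 4.46 and 5.91 CPM in Ace (-0.46 ± 0.12, FDR 7.8e-04), and 6 of 7 Ace libraries lay below all controls. Ptgs2, cyclooxygenase 2, was at 0.33 ± 0.23 (FDR 0.26). The secreted phospholipase Pla2g2a (-2.47), the prostaglandin D synthase Hpgds (-1.55) and the thromboxane receptor Tbxa2r (-1.38) fell with no overlap. Alox5, the 5-lipoxygenase of leukotriene synthesis, rose by 1.03 ± 0.28 at a low level.

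**Figure D5:**
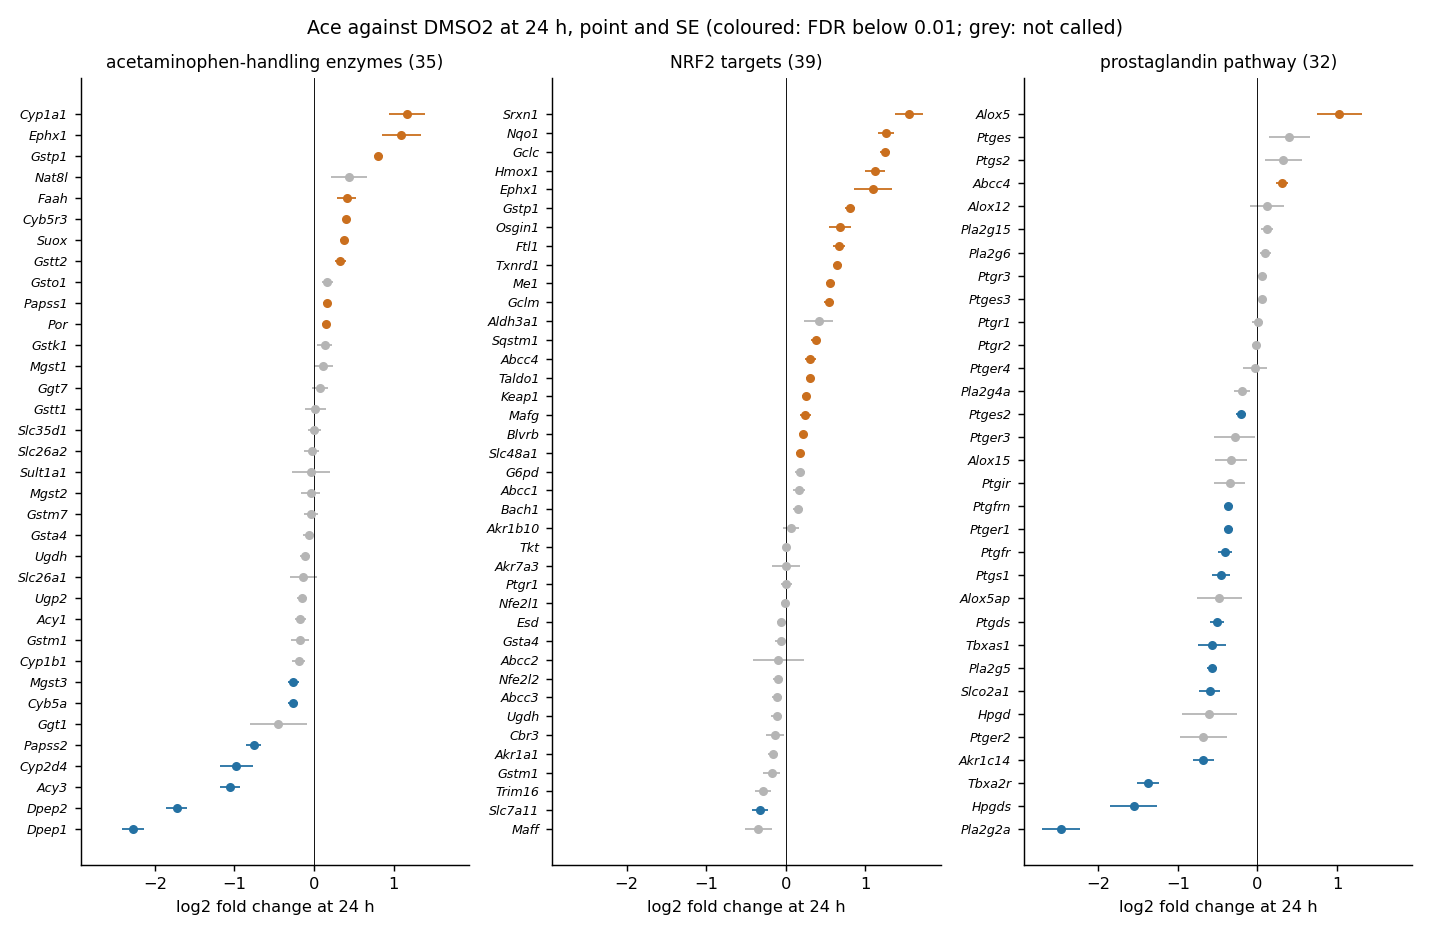
Log2 fold change ± SE of Ace against DMSO2 at 24 h for the genes of acetaminophen handling (35), NRF2 targets (39) and the prostaglandin pathway (32); coloured points had an FDR below 0.01. Increases led among NRF2 targets (18 higher, 1 lower) and decreases among prostaglandin genes (2 higher, 13 lower), while acetaminophen-handling genes went both ways (9 higher, 7 lower).

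Heart muscle genes were called about as often as genes in general, but mostly as decreases. Over all genes 18.2% rose and 19.1% fell. Of 25 cardiomyocyte markers, 15 of which are also on the sarcomere list, 2 rose and 8 fell (median -0.20, 40% called), and of 45 sarcomere and Z-disc genes 2 rose and 14 fell (median -0.21, 35.6% called). Myh6, the adult alpha-myosin, ran from 14330 to 21400 CPM in DMSO2 and from 15330 to 26630 CPM in Ace (0.09 ± 0.10, FDR 0.46). Tnnt2, cardiac troponin T, was at 0.11 (FDR 0.10; called higher, at 0.17, with scaling by library size alone) and the fetal isoform Myh7 at -0.35 ± 0.22 (FDR 0.20). Myl2, the ventricular light chain, rose by 0.33, whereas Myl7, the atrial one, fell by 0.81 ± 0.08 (FDR 1.0e-13) with no overlap.

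Of 18 genes of the fetal program and the natriuretic peptides, which are markers of cardiac strain, 2 rose and 6 fell (median -0.24). Nppa, one of the 2 beside Acta1, ran from 764 to 1494 CPM in DMSO2 (median 1017) and rose by 0.74 ± 0.16 (FDR 6.5e-05), with 5 of 7 Ace libraries above all controls. Nppb was at 0.42 ± 0.33 (FDR 0.31). Corin (-1.68), the protease that activates these peptides, and Npr3 (-1.71), the receptor that clears them, fell with no overlap.

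Ion channels and connexins fell in 24 of 53 cases and rose in 1 (median -0.32). Kcnj11 (-0.69), the pore of the ATP-sensitive potassium channel, and Gja1 (-0.47), the main ventricular connexin, fell, as did the vascular connexin Gja4 (-1.94). Ryr2, the calcium release channel, fell by 0.36 ± 0.11 (FDR 0.0052), with 4 of 7 Ace libraries below all controls, and lost its call with scaling by library size alone (-0.30) and without library 1, 3 or 5 of Ace or library 1, 2 or 7 of DMSO2 (-0.31 to -0.34).

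Of 75 genes of oxidative phosphorylation 1 rose and 10 fell (median -0.09, 14.7% called), and log2 fold changes ran from -0.70 to 0.25. Of 52 genes of fatty acid oxidation 3 rose and 19 fell (median -0.15, 42.3% called), with log2 fold changes from -1.33 to 0.55. With scaling by library size alone 7 of those 52 were called higher and 15 lower, and 2 and 7 of the 75. Cytosolic ribosomal proteins gave 3 lower of 55 (median -0.09).

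Of 36 genes of sterol synthesis, uptake and control 15 rose and 3 fell (median 0.16). Of 12 genes from squalene to cholesterol 9 rose (median 0.44), and of 9 mevalonate genes 3 rose. Idi1, the isomerase of the mevalonate branch, had 21.1, 27.9 and 32.7 CPM (lowest, median, highest) in DMSO2 and 36, 57 and 73.2 CPM in Ace, a log2 fold change of 0.94 ± 0.15 (FDR 1.9e-07), with library 7 the lowest of Ace. Hmgcs1, of the same branch, was at -0.04 (FDR 0.75). Srebf1, a transcription factor of lipid synthesis, fell by 0.68.

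Proteasome subunits rose in 18 of 38 cases with none lower (median 0.12). Psmd3, of the regulatory particle, rose by 0.36 ± 0.04 and Psmb9, an immunoproteasome subunit, by 0.59 ± 0.11. Of 36 genes of endoplasmic reticulum stress 10 rose and 1 fell at 6 h, when 16.5% of all genes rose and 15.2% fell, and 25 were not called. At 24 h 3 rose and 8 fell, and 11 differences between the times were called downward. Hspa5, the main chaperone of that compartment, rose by 0.53 at 6 h and was at -0.05 ± 0.07 (FDR 0.61) at 24 h. Xbp1, a transcription factor of the same response, was at 0.14 at 6 h and fell by 0.36 at 24 h, and Edem3, which marks misfolded glycoproteins for removal, rose by 0.61 at 6 h and by 0.24 at 24 h. Of 45 ATF4 and amino acid response genes 7 rose and 17 fell at 24 h (median -0.18). With scaling by library size alone 8 rose and 11 fell. Gdf15 (3.15) rose and Nupr1 (-0.99), a stress-induced chromatin protein, fell, and both are also on the list of p53 targets.

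Xkr5 had the largest upward difference, 2.63 on the log2 scale (0.15 at 6 h and 2.78 at 24 h). Troap (2.52), a spindle protein, Ankle1 (2.49), a nuclease, Cdca2 (2.44), which recruits a phosphatase to chromosomes, and Esco2 (2.38) followed. Aspn (-2.67), Fndc1 (-1.68), Zim1 (-1.68), Peg3 (-1.56) and Cpz (-1.55) had the largest downward differences.

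Zim1 and Peg3 are imprinted zinc finger genes that are neighbours in the genome. Peg3 rose by 1.05 at 6 h (FDR 9.9e-16) and fell by 0.51 ± 0.08 at 24 h, when it ran from 267 to 360 CPM in DMSO2 and from 216 to 245 CPM in Ace. Zim1 was at 0.28 at 6 h (FDR 0.19) and fell by 1.40 ± 0.14 at 24 h, from 7.81 to 13.8 CPM in DMSO2 to 3.48 to 5.31 CPM in Ace. At 24 h the groups overlapped for neither gene.

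The 24 h effect of Ace was set against that of 5FU, a pyrimidine analogue that blocks thymidylate synthase, each relative to its own DMSO control. The difference of the effects passed the test upward for 2779 genes (19.1%) and downward for 2650 (18.2%). For the mitotic list, 65 of 79 differences were upward and 3 downward (median log2 fold change 1.075 for Ace and 0.04 for 5FU), and for the replication list 52 of 87 were upward and 6 downward (0.65 and 0.17). Library 1 of the DMSO1 controls was the only library of DMSO1 or 5FU to be left out. Without it the counts were 62 and 3 for the mitotic list and 52 and 8 for the replication list. Collagen genes had 29 of 50 differences upward and 1 downward, as they had fallen further with 5FU (median -1.15). Among p53 targets 9 of 46 differences were upward and 10 downward, and without that library 6 were upward and 20 downward. The balance of these calls thus changed without it, and whether other DMSO1 or 5FU libraries matter as much was not tested.

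Dox, a topoisomerase poison, had the same controls as Ace, so the groups were compared directly. Ace was higher than Dox for 5804 genes (39.9%) and lower for 5927 (40.7%). In that comparison 43 of 79 mitotic genes were higher in Ace and 18 lower, and 7 of 46 p53 targets were higher and 37 lower. Against DMSO2, medians of the mitotic list were 1.075 for Ace and 0.43 for Dox, and of the p53 targets 0.29 and 1.32. The drugs were given at unrelated concentrations, so these values stand side by side only.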

How the data were processed

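PolyA-selected RNA from primary neonatal rat cardiomyocytes was sequenced in paired reads of 150 bases. Per the paper's methods and the submitters' processing notes, the authors assigned reads with kallisto 0.46.0 to rat Ensembl transcripts, used tximport to sum these to genes and dropped genes whose counts were low throughout, and the deposited values are estimated counts, whole numbers that were not normalized. All 65 columns were used, and 0 were left unmapped. The columns name the group but no replicate, so library numbers are labels within a group.

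Counts were analysed in R 4.3.3 with edgeR 4.0.16 (TMM factors, glmQLFit and glmQLFTest, 1 model with 10 groups as terms), limma 3.58.1 and DESeq2 1.42.0 (Wald test as an alternative). A minimum count of 10 in any 1 library was required of each gene, which all met. Genes with a Benjamini-Hochberg FDR below 0.01 were called, and the SE of a log2 fold change was its size divided by the square root of F. On simulated counts for 14554 genes in this comparison, 50 of 67 genes changed 1.5-fold, 66 of 67 changed 2-fold and 66 of 66 changed 4-fold were called in the right direction, with 2 unchanged genes called. That fit held only Ace and DMSO2 at 24 h, not all 10 groups, and far fewer genes were changed than were called in the data. These rates therefore do not give the error rates of the reported calls. Between libraries of a group the chi-square of counts per gene was 3.54 to 22.4, so none was a copy of another.

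Symbols and promoters came from RefSeq tables of GRCr8, and 14009 genes had a symbol. Gene lists (48 lists, 1910 entries, 1726 in the table) were written from general knowledge, and the members, lists and tests were chosen with earlier results of these data known. Named were the 10 largest increases and decreases with a mean count of at least 100, the 5 most abundant genes per direction with a log2 fold change of at least 1 in size, the 5 largest differences between times per direction, and list members beside their list. Alternatives were other scalings, tools, filters and thresholds, a fit of the compared groups alone, and leaving out each library of Ace and DMSO2; those for 5FU and Dox, without any 5FU or Dox library left out and with only library 1 of DMSO1, were added after seeing the data. A few named genes are not reported here.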

Additional observations from a re-analysis of the deposited data

Results flagged for a closer look

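In 88 sets of 7 values, 1 library lay apart from the other 6 in 7 sets by Dixon's test (critical value 0.568), where chance gives about 1 in 20. In 5 of these 7 sets it was library 7 of Ace. That library held 89.38 CPM of Mki67 (nearest other Ace library 127.4), 9.744 CPM of Ccnb1 (17.53), 1.88 CPM of Plk5 (6.814), 120.9 CPM of Dcn (97.69) and 3717 summed CPM of NRF2 targets (3965). In each of these it lay on the side of the DMSO2 controls. All 88 sets come from the same 14 libraries, and some summed lists hold genes that were also tested singly. The sets are thus not independent, and 1 in 20 is no yardstick for the 7 found. In DMSO2, library 2 held 1.156 CPM of Xkr5 (nearest other library 1.483) and library 3 held 1.338 CPM of Cyp1a1 (0.7439).

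The effect of Ace differed between 6 h and 24 h for 1694 genes by the test of the difference itself in edgeR. The differences of the log2 fold changes, 24 h minus 6 h, were 2.633 for Xkr5, 2.517 for Troap, 2.492 for Ankle1, 2.438 for Cdca2 and 2.378 for Esco2. Downward they were -2.668 for Aspn, -1.684 for Fndc1, -1.679 for Zim1, -1.556 for Peg3 and -1.546 for Cpz.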

How the results depend on the processing

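The 5418 genes called between Ace and DMSO2 at 24 h became 5566 in DESeq2's Wald test, 5417 with DESeq2's size factors, 5447 with filterByExpr, 5615 with scaling by library size alone, 6408 in a fit of the compared groups alone and 7863 at an FDR below 0.1. No filter gave 5418. With a log2 fold change of at least 1 in size, 891 were called (378 higher, 513 lower), against 340 for the difference between times (226 and 114), 915 for Ace minus 5FU (718 and 197) and 5274 for Ace minus Dox (2509 and 2765). The difference between times also gave 2697 genes in the fit of the compared groups (1265 and 1432), 3867 at an FDR below 0.1 (1769 and 2098), and 1402 higher and 417 lower with library size alone. Leaving out 1 library gave 5082 to 5351 genes called at 24 h, and 1476 to 1759 between times. Leaving out 1 library of Ace or DMSO2 at 24 h, or library 1 of DMSO1, gave 5195 to 5748 for Ace minus 5FU, and leaving out 1 library of Ace gave 11566 to 11634 for Ace minus Dox.

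Of 204 genes refitted under the alternatives, 5 changed direction in at least 1, and none of the 5 was called. With library size alone Sult1a1 was at 0.0222, Hmgcs1 at 0.0133 and Hspa5 at 0.0102. Over fits without 1 library Wee1 ran from -0.0186 (without library 1 of Ace) to 0.0709 (without library 7 of Ace), Sult1a1 from -0.136 to 0.0519 and Myh6 from -0.0016 (without library 7 of Ace) to 0.15. The cause was not tested. No paired analysis was possible because the columns carry no replicate numbers. Genes below about 1 CPM rest on few counts.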

Other observations

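Of 66 genes for chemokines, cytokines and the interferon response 15 rose and 14 fell (median log2 fold change 0.001). The chemokine Cxcl10 ran from 0.52 to 1.07 CPM in DMSO2 and from 1.33 to 4.63 CPM in Ace (1.78 ± 0.26, FDR 4.5e-08 in edgeR), and Lif, a cytokine of the interleukin 6 family, rose by 1.5 ± 0.24. The stromal chemokine Cxcl12 fell by 1.46, Il33, an alarmin, by 1.68, and Cxcl13, which attracts B cells, by 2.32.

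Of 20 genes of nitric oxide and arginine metabolism 6 rose and 7 fell (median -0.16). Nos3, the endothelial nitric oxide synthase, had 22.4, 26.6 and 30.4 CPM (lowest, median, highest) in DMSO2 and 8.21, 9.24 and 13.9 CPM in Ace (-1.32 ± 0.12, FDR 1.7e-14 in edgeR), and endothelial markers fell in the same libraries. Gch1, which makes the cofactor of that enzyme, rose by 1.27 ± 0.15. Of 19 circadian genes 6 rose and 4 fell (7 and 2 with scaling by library size alone), and Hlf, a clock-controlled transcription factor, rose by 1.94 ± 0.27 at 24 h and by 1.81 at 6 h.

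Of 33 genes of calcium handling 9 rose and 12 fell, and of 35 genes of fatty acid and glycerolipid synthesis 13 rose and 6 fell. Phospholipid synthesis genes rose in 13 of 50 cases and fell in 7, or 16 and 4 with scaling by library size alone. Autophagy and lysosome genes rose in 14 of 56 cases and fell in 11, or 21 and 7 with that scaling. Adrenergic and cAMP signalling genes rose in 2 of 36 cases and fell in 14, or 4 and 11 with that scaling.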
